A study of Mus musculus with 20 samples.

Results

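The 10 genes described here mark the sinusoidal endothelium of the liver and were chosen by name: Clec4g, Dnase1l3, Stab1, Stab2, Lyve1, Fcgr2b, Cd300lg, Kdr, Oit3 and Pecam1. Each had 1 entry among the 54532 entries of the deposited table, and all 10 passed the filter on low values. Polyadenylated RNA of whole mouse liver was sequenced in 4 groups of 5 libraries. The groups were STING knockout mice with a bile duct ligated for 7 days (BDL_KO), wild-type mice with the same ligation (BDL_Wt), knockout mice after sham surgery (Sham_KO) and wild-type mice after sham surgery (Sham_Wt). STING is a cytosolic sensor adaptor of innate immunity encoded by Tmem173, and ligation of the common bile duct blocks bile outflow, so that the liver becomes cholestatic. The labels give no strain, age or kind of knockout allele and do not say whether each library is a separate animal. The p-values therefore set group differences against the spread of these libraries, and whether they hold for animals cannot be told. The comparisons address what ligation did to these genes in each genotype and whether the knockout changed it.

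Liver sinusoidal endothelial cells line the capillaries between hepatocyte plates. They lack a continuous basement membrane, are perforated by fenestrae, and clear waste macromolecules, immune complexes and hyaluronan from blood through scavenger receptors. When this endothelium loses its specialised state, a process called capillarisation, fenestrae close and a basement membrane with type IV collagen appears. Several of the 10 genes have a second source in liver: Stab1, Lyve1 and Fcgr2b are also used by macrophages, Fcgr2b by B cells, and Pecam1 by all endothelium, platelets and some leukocytes. In bulk tissue, fewer cells of a type and less RNA per cell cannot be told apart, and this holds for every level below.

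The libraries held between 14.94 and 20.9 M assigned fragments, recovered from the FPKM values (fragments scaled to gene length and to library size, so that levels of different genes can be set side by side). A library held between 36 fragments, for Cd300lg, and 1336 fragments, for Stab1, of any of the 10 genes. Tmem173 averaged 1.42 ± 0.762 FPKM in ligated knockout livers and 3.64 ± 0.861 FPKM in ligated wild-type livers (SD, n = 5 each; exact two-sided permutation test, p = 0.00794, the smallest that 252 splits can give). It averaged 0.743 ± 0.189 FPKM in sham knockout livers and 1.71 ± 0.544 FPKM in sham wild-type livers (SD, n = 5 each; exact two-sided permutation test, p = 0.0159). Each group mixed libraries with Y-linked transcripts and libraries with Xist, in a ratio of 2 to 3 or 3 to 2. The libraries BDL_KO_2359 and BDL_KO_2248 stood apart from the other 3 ligated knockout libraries, so the counts of sinusoidal and other marker genes after ligation are also given without them where they change. These libraries were singled out after the data were seen.

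In sham wild-type livers the level per unit of length descended in the order Clec4g, Dnase1l3, Fcgr2b, Oit3, Stab2, Cd300lg, Stab1, Kdr, Pecam1 and Lyve1, between group means of 17.0 and 1.28 FPKM. Ranges of neighbours in that order were apart for Clec4g and Dnase1l3, for Kdr and Pecam1, and for Pecam1 and Lyve1, and overlapped for the rest. Sham knockout livers had the same order except that Oit3 stood above Fcgr2b. Ligated livers had another order. Clec4g stayed first in both ligated groups, and Dnase1l3, ranked 2 in both sham groups, ranked 5 in both ligated groups. Cd300lg ranked 7 in ligated knockout livers and 10 in ligated wild-type livers, against 6 in both sham groups, and no pair of neighbours had ranges apart in either ligated group. The 10 levels added up to between 32.9 and 63.3 FPKM in ligated knockout libraries, between 27.3 and 41.6 FPKM in ligated wild-type libraries, between 69.6 and 92.6 FPKM in sham knockout libraries and between 61.3 and 75.1 FPKM in sham wild-type libraries. All 10 markers were above 0 in every library.

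**Figure D1:**
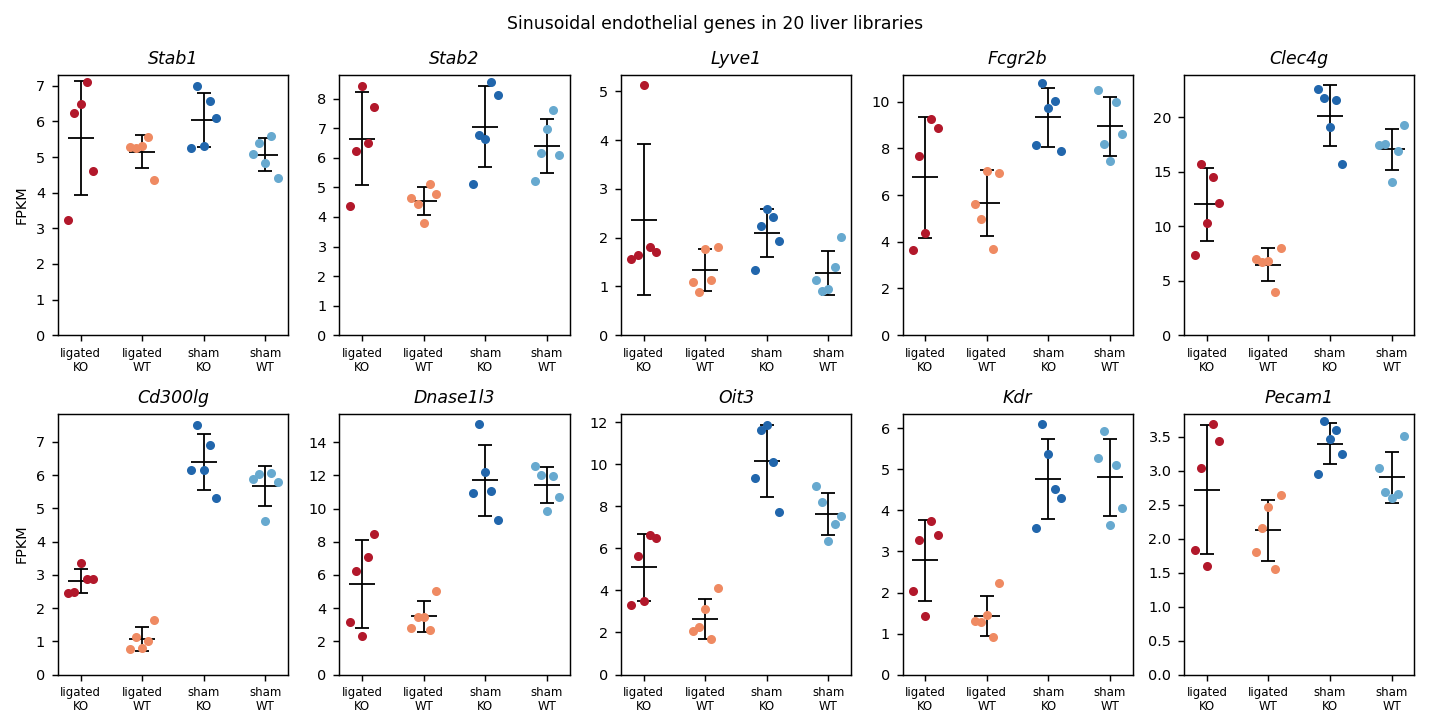
Level of each of the 10 genes in FPKM (vertical axes) in each library (points), with the group mean and SD, for ligated knockout, ligated wild-type, sham knockout and sham wild-type livers. Cd300lg lies between 0.774 and 1.65 FPKM in ligated wild-type libraries, below every library of the other groups, while the groups of Stab1 overlap between 3.22 and 7.11 FPKM.

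Of the scavenger and uptake receptors, Stab1 (stabilin-1, a large receptor that takes up oxidised lipoproteins and matrix fragments) passed the test in none of the comparisons. It lies on GRCm38 chromosome 14 at 31139013 to 31168641 on the minus strand (ENSMUSG00000042286). It averaged 5.53 ± 1.59 FPKM in ligated knockout livers, 5.15 ± 0.462 FPKM in ligated wild-type livers, 6.04 ± 0.767 FPKM in sham knockout livers and 5.06 ± 0.464 FPKM in sham wild-type livers (SD, n = 5 each). The 95% interval of the ligated minus sham log2 difference was -0.29 to 0.34 in wild-type livers, so a fall of 2-fold lies outside it.

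Stab2 (stabilin-2, the main hyaluronan clearance receptor of the sinusoid; ENSMUSG00000035459, chromosome 10 at 86841198 to 87008025, minus strand) had 4.36, 6.23, 8.43, 6.51 and 7.73 FPKM in ligated knockout livers. Ligated wild-type livers had 4.64, 4.42, 3.79, 5.10 and 4.76 FPKM. Ligated wild-type livers were below all sham wild-type livers, which had 5.21, 6.16, 6.96, 7.60 and 6.11 FPKM, while ligated knockout livers overlapped sham knockout livers, which lay between 5.11 and 8.58 FPKM.

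Lyve1 (a hyaluronan receptor of sinusoidal and lymphatic endothelium; ENSMUSG00000030787, chromosome 7 at 110850607 to 110863239, minus strand) was the least abundant of the 10 in 3 of the 4 groups. It had 1.55, 1.64, 5.13, 1.82 and 1.70 FPKM in ligated knockout livers, and between 0.892 and 1.82 FPKM in ligated wild-type livers. Sham knockout livers had between 1.33 and 2.59 FPKM and sham wild-type livers between 0.917 and 2.02 FPKM. The groups overlapped, and the high library, BDL_KO_2248, set the knockout mean of 2.37 ± 1.55 FPKM (SD, n = 5). In that library the summed level of 5 lymphatic endothelial genes was 36.1 FPKM, the highest of its group, whose lowest library had 15.4 FPKM. One of them, Flt4, is also counted here among sinusoidal genes. That library also had the highest hepatocyte sum of its group, 59165 FPKM. BDL_KO_2359, the library with the lowest lymphatic sum, had a hepatocyte sum of 49154 FPKM. The part of lymphatic endothelium or of other cells in the Lyve1 level was not tested.

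Fcgr2b (the inhibitory Fc receptor for immunoglobulin G, which on sinusoidal cells removes small immune complexes; ENSMUSG00000026656, chromosome 1 at 170958617 to 170976547, minus strand) had 3.64, 7.68, 4.38, 9.25 and 8.85 FPKM in ligated knockout livers. In ligated wild-type livers the values were 5.62, 4.98, 7.04, 3.70 and 6.93 FPKM, all below the sham wild-type range of 7.45 to 10.5 FPKM. In sham knockout livers it lay between 7.87 and 10.8 FPKM, a range that ligated knockout livers reached into. Reads of Fcgr2b can be shared with its neighbour and close relative Fcgr3, which makes its level uncertain, and 2.68% of its exonic bases overlap Gm38204 on the other strand.

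Of the surface receptors outside the scavenger class, Cd300lg (an immunoglobulin-domain receptor of capillary endothelium, also called nepmucin; ENSMUSG00000017309, chromosome 11 at 102041509 to 102055620, plus strand) separated the groups most clearly. Ligated knockout livers had 2.46, 2.48, 3.35, 2.88 and 2.87 FPKM. Ligated wild-type livers had 0.774, 1.13, 0.802, 1.01 and 1.65 FPKM. Every ligated knockout library thus lay above every ligated wild-type library. Sham knockout livers had between 5.30 and 7.50 FPKM and sham wild-type livers between 4.62 and 6.06 FPKM, all above both ligated groups. Its lowest library held 36 fragments of it, the fewest of any of the 10 genes.

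Clec4g (LSECtin, a C-type lectin of sinusoidal cells that binds glycoproteins and activated T cells; ENSMUSG00000074491, chromosome 8 at 3707064 to 3720651, minus strand) had 7.34, 15.7, 10.3, 14.5 and 12.1 FPKM in ligated knockout livers. The ligated wild-type values were 6.95, 6.68, 6.81, 3.92 and 8.04 FPKM, with only the highest above the lowest knockout library. It lay between 15.7 and 22.6 FPKM in sham knockout livers, and in sham wild-type livers between 14.0 and 19.3 FPKM. Ligated wild-type livers were all below sham wild-type livers, whereas 1 ligated knockout library reached the sham knockout range. Over 5.93% of its exonic length it overlaps Gm16553 on the other strand, an entry with a mean of 0.348 FPKM.

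Of the secreted products, Dnase1l3 (an endonuclease that digests DNA in microparticles and chromatin in blood; ENSMUSG00000025279, chromosome 14 at 7964533 to 7994573, minus strand) had 3.16, 6.26, 2.30, 7.09 and 8.48 FPKM in ligated knockout livers. Ligated wild-type livers had 2.83, 3.49, 3.44, 2.69 and 5.05 FPKM. The ligated groups overlapped each other and lay below both sham groups, which had between 9.30 and 15.1 FPKM in knockout livers and between 9.88 and 12.5 FPKM in wild-type livers.

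Oit3 (a secreted zona pellucida domain protein found on liver sinusoidal cells; ENSMUSG00000009654, chromosome 10 at 59422958 to 59441778, minus strand) had 3.33, 5.62, 3.48, 6.62 and 6.48 FPKM in ligated knockout livers. In ligated wild-type livers the levels were 2.09, 2.28, 3.12, 1.69 and 4.10 FPKM. The ligated groups overlapped through 1 wild-type and 2 knockout libraries. Ligated knockout livers lay below sham knockout livers, which had between 7.72 and 11.9 FPKM, and ligated wild-type livers lay below sham wild-type livers, which had between 6.37 and 8.97 FPKM.

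Kdr (VEGF receptor 2, the main signalling receptor for vascular endothelial growth factor; ENSMUSG00000062960, chromosome 5 at 75932827 to 75978458, minus strand) had 2.04, 3.29, 1.43, 3.74 and 3.40 FPKM in ligated knockout livers. Ligated wild-type livers had 1.30, 1.28, 1.46, 0.918 and 2.23 FPKM, all below the sham wild-type range of 3.64 to 5.94 FPKM. Sham knockout livers had between 3.57 and 6.10 FPKM, which 1 ligated knockout library reached.

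Pecam1 (a junctional adhesion molecule of all endothelium; ENSMUSG00000020717, chromosome 11 at 106654217 to 106750628, minus strand) had 1.83, 3.04, 1.60, 3.68 and 3.44 FPKM in ligated knockout livers. The 5 ligated wild-type livers had 1.80, 2.15, 2.47, 1.56 and 2.64 FPKM. It lay between 2.96 and 3.73 FPKM in sham knockout livers, and in sham wild-type livers between 2.60 and 3.51 FPKM, and ligated and sham groups overlapped in both genotypes.

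In knockout livers, 5 of the 10 genes fell after ligation and none rose. They were Cd300lg, Dnase1l3, Oit3, Clec4g and Kdr, and the other 5 did not pass the test. Of all 14059 genes tested, 12.9% were called lower and 12.3% higher with limma at a Benjamini-Hochberg adjusted p under 0.05. In 3 of the 5, Cd300lg, Dnase1l3 and Oit3, ligated and sham libraries did not overlap, against 5.72% of all genes that were lower without overlap. The median log2 difference of the 10 was -0.62, against -0.01 for all genes.

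Cd300lg fell to 43.9% of the sham knockout mean (difference -1.06 ± 0.13 on the log2(FPKM + 0.5) scale, SE, limma adjusted p = 2.04e-05) and Dnase1l3 to 46.6% (-1.15 ± 0.25, adjusted p = 0.00267). Oit3 fell to 50.3% (-0.96 ± 0.20, adjusted p = 0.00233), Kdr to 58.3% (-0.73 ± 0.21, adjusted p = 0.0173) and Clec4g to 59.6% (-0.76 ± 0.18, adjusted p = 0.0062). Among the rest, log2 differences were -0.51 ± 0.21 for Fcgr2b (adjusted p = 0.0888), -0.33 ± 0.17 for Pecam1 (adjusted p = 0.166), -0.16 ± 0.15 for Stab1, -0.09 ± 0.15 for Stab2 and 0.04 ± 0.25 for Lyve1. Without the libraries BDL_KO_2359 and BDL_KO_2248, 4 genes were called, against 37.0% of all genes called in either direction. Kdr then had a log2 difference of -0.39 (adjusted p = 0.118), with a median over the 10 genes of -0.30. As TPM, 3 genes were called, without Kdr and Clec4g.

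In wild-type livers, 7 of the 10 genes fell after ligation, by unequal amounts, and none rose. They were the 5 that fell in knockout livers together with Fcgr2b and Stab2, and the other 3, Stab1, Lyve1 and Pecam1, did not pass the test. Over all genes, 17.5% were called lower and 18.1% higher. In all 7, no ligated library overlapped a sham library, against 15.1% of all genes that were lower without overlap. The median log2 difference of the 10 was -0.997, against -0.02 for all genes.

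The largest fall in wild-type livers was that of Cd300lg, to 18.9% of the sham mean, with a log2 difference of -1.99 ± 0.13 (SE, limma adjusted p = 1.62e-08). Kdr fell to 29.9% of its sham mean (log2 difference -1.47 ± 0.21, limma adjusted p = 3.66e-05) and Dnase1l3 to 30.7% (-1.60 ± 0.25, adjusted p = 7.66e-05). Oit3 fell to 34.7% (-1.41 ± 0.20, adjusted p = 3.78e-05) and Clec4g to 38.0% (-1.36 ± 0.18, adjusted p = 2.36e-05). These 5 genes changed at least 2-fold on the log2(FPKM + 0.5) scale, which understates the change of low genes such as Cd300lg. Fcgr2b fell to 63.3% (-0.64 ± 0.21, adjusted p = 0.0256) and Stab2 to 70.9% (-0.45 ± 0.15, adjusted p = 0.0259). Pecam1 had a log2 difference of -0.39 ± 0.17 (adjusted p = 0.0844), and was called with array weights (0.0121), with only the compared groups in the fit (0.0293) and without BDL_KO_2359 and BDL_KO_2248 (0.00987). Its difference did not grow in these settings, at -0.36, -0.39 and -0.39. Of all genes, 49.4%, 44.2% and 42.2% were called in them, against 35.6% in the main fit. The log2 difference of Lyve1 was 0.05 ± 0.25 (adjusted p = 0.902) and that of Stab1 was 0.02 ± 0.15 (adjusted p = 0.925). The calls of Fcgr2b and Stab2 were lost as TPM, scaled to total fragments, without the filter and when single libraries were left out, with an adjusted p of up to 0.077 for Fcgr2b and 0.0726 for Stab2 when 1 library was left out.

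After ligation, 4 of the 10 genes were higher in knockout than in wild-type livers and none was lower. Cd300lg was higher by 1.09 ± 0.13 on the log2 scale, or 2.62-fold in mean FPKM, with no overlap between the groups (SE, limma adjusted p = 3.04e-05). Clec4g was higher by 0.83 ± 0.18 (adjusted p = 0.00913), Oit3 by 0.83 ± 0.20 (adjusted p = 0.0162) and Kdr by 0.73 ± 0.21 (adjusted p = 0.0359), each with overlap of 1 or more libraries. The Kdr call was lost in 7 of the 20 fits that each left out 1 library (adjusted p of 0.059 to 0.0849) and without the filter (0.0721). Over all genes, 3.46% were called higher, 5.37% lower, and 2.17% were higher without overlap. The log2 difference was above 0 in all 10 genes, with a median of 0.51 against 0.01 for all genes. In sham livers it was above 0 in 9 of the 10, with a median of 0.18.

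Among the 6 genes that did not pass, Stab2 had a log2 difference of 0.48 ± 0.15 (limma adjusted p = 0.0545), Lyve1 of 0.55 ± 0.25 (adjusted p = 0.178) and Dnase1l3 of 0.47 ± 0.25 (adjusted p = 0.257). Those of Pecam1, Fcgr2b and Stab1 were 0.26 ± 0.17, 0.19 ± 0.21 and 0.05 ± 0.15. The count depended on the libraries BDL_KO_2359 and BDL_KO_2248. In both, Clec4g, Dnase1l3, Fcgr2b, Kdr, Oit3 and Pecam1 lay below the other 3 ligated knockout libraries, while Stab1, Stab2, Lyve1 and Cd300lg did not. Dnase1l3, for example, had 3.16 and 2.30 FPKM in them, against 7.28 ± 1.12 FPKM in the other 3 (SD, n = 3). Without them 8 genes were called higher. Of all genes, 6.60% were then called in either direction, and 49.1% of those called were higher. The 4 added genes were Dnase1l3 (log2 difference 0.98, adjusted p = 0.0017), Fcgr2b (0.59, adjusted p = 0.0433), Pecam1 (0.58, adjusted p = 0.0118) and Stab2 (0.54, adjusted p = 0.0332), and the median was 0.78. Dnase1l3, Fcgr2b and Pecam1 were low in both libraries, which were singled out after the data were seen. Leaving the libraries out could thus only raise their differences, and these calls are no separate support. With all libraries, 1 gene was called as TPM, scaled to total fragments or with only the 2 ligated groups in the fit, Cd300lg each time, and without BDL_Wt_2233 Clec4g and Cd300lg were called.

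Markers of other cell types also stood apart in these 2 libraries. Summed levels of 23 pan-endothelial genes were 58.0 FPKM in BDL_KO_2359 and 46.2 FPKM in BDL_KO_2248, where the ligated knockout group reached 106 FPKM. Summed levels of 12 Kupffer cell genes were 356 and 291 FPKM in them, where the group reached 945 FPKM, and those of 10 hepatocyte genes were 49154 and 59165 FPKM, where the lowest library of the group had 31699 FPKM. Their part in the difference between the genotypes was not tested.

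The difference between genotypes in the response to ligation passed the test for 1 gene. For Cd300lg, the ligation difference in knockout livers minus that in wild-type livers was 0.93 ± 0.18 on the log2 scale (SE, 95% interval 0.55 to 1.32, limma adjusted p = 0.0342). Of all genes tested, 0.377% passed in either direction and 0.156% were positive. Kdr had 0.74 ± 0.30 (adjusted p = 0.29) and Clec4g 0.60 ± 0.26 (adjusted p = 0.343), and the rest lay between -0.18 for Stab1 and 0.45 for Oit3. The other 9 genes were thus not shown to respond differently in the 2 genotypes, although Stab2 and Fcgr2b were called in wild-type livers alone. The Cd300lg call was lost in 11 of the 20 fits that each left out 1 library, with values of 0.87 to 0.96 and an adjusted p of 0.053 to 0.0787, and also as TPM (adjusted p = 0.119), scaled to total fragments (0.0937) and without the filter (0.0836). Without BDL_KO_2359 and BDL_KO_2248, 3 genes passed, with Dnase1l3 at 0.95 (adjusted p = 0.043) and Kdr at 1.08 (adjusted p = 0.0436) beside Cd300lg. Over all genes, 1.27% then passed in either direction. Dnase1l3 and Kdr were low in both libraries, so leaving the libraries out could only raise their values.

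Without ligation, none of the 10 genes differed between knockout and wild-type livers with limma, and none did with voom on recovered fragments, where 2.97% of all genes were called with limma. Only Lyve1 had an unadjusted p under 0.05. It averaged 2.10 ± 0.492 FPKM in sham knockout livers and 1.28 ± 0.454 FPKM in sham wild-type livers (SD, n = 5 each), with a log2 difference of 0.56 ± 0.25 (SE, 95% interval 0.04 to 1.08, limma adjusted p = 0.25). Oit3 had 0.38 ± 0.20 (adjusted p = 0.351), and the other 8 lay between -0.01 for Kdr and 0.23 for Clec4g and Stab1. The difference was above 0 in 9 of the 10 genes, with a median of 0.18 against 0.01 for all genes. For Cd300lg the interval was -0.11 to 0.43, which leaves out the difference of 1.09 seen after ligation.

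**Figure D2:**
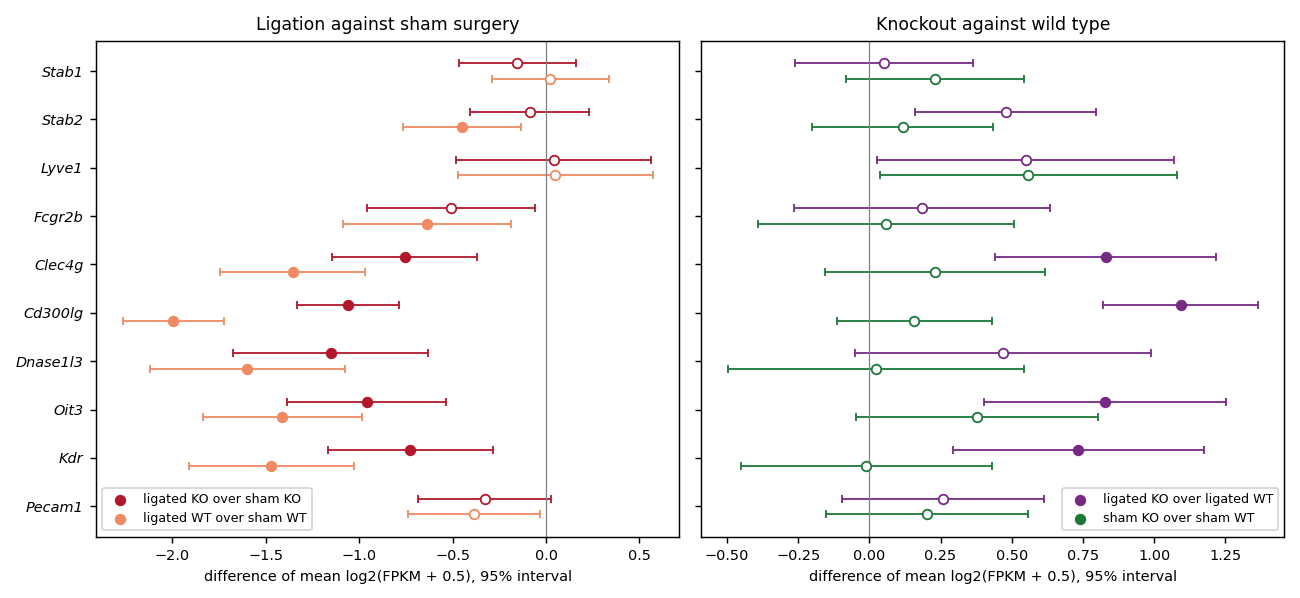
Log2 difference of each gene with its 95% interval (horizontal axis, log2 of FPKM + 0.5) in the comparisons of ligation and of genotype, with filled points where the limma adjusted p is under 0.05. The fall of Cd300lg after ligation is -1.06 in knockout livers and -1.99 in wild-type livers, and Stab1 and Lyve1 lie near 0 in both.

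Levels were next set against the endothelium as a whole, by subtracting from each gene's log2 value the mean log2 value of 22 tested pan-endothelial genes of the same library. This measure was chosen after the data were seen and is given without a test. That mean was 1.49 ± 0.44 in ligated knockout livers, 1.13 ± 0.24 in ligated wild-type livers, 1.84 ± 0.11 in sham knockout livers and 1.67 ± 0.08 in sham wild-type livers (SD, n = 5 each). Relative to it, 5 of the 10 genes still had all ligated wild-type libraries below all sham wild-type libraries, which 1.88% of all genes did. The differences were -1.45 for Cd300lg, -1.05 for Dnase1l3, -0.93 for Kdr, -0.87 for Oit3 and -0.81 for Clec4g. Stab1 had 0.57 and Lyve1 0.59, while Stab2, Fcgr2b and Pecam1 lay between -0.10 and 0.16. In knockout livers, Dnase1l3 (-0.80), Oit3 (-0.61) and Kdr (-0.38) were below sham without overlap, which 0.832% of all genes were. Before the subtraction, the shares over all genes were 15.1% in wild-type livers and 5.72% in knockout livers. The subtraction moves every gene by the group difference in that mean. It also adds the spread of that mean to genes that do not follow the endothelium. The shares are therefore low by construction and do not say how rare such a fall is.

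On the same scale, Cd300lg (0.73), Oit3 (0.46) and Kdr (0.37) were higher in every ligated knockout library than in every ligated wild-type library, which 0.0925% of all genes were. That share is low by construction for the same reason, and it was 2.17% before the subtraction. Clec4g had 0.47 with overlap, and Stab1 had -0.31. For the 3 genes without overlap this includes BDL_KO_2359 and BDL_KO_2248 by definition, so it is no separate check of those libraries.

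**Figure D3:**
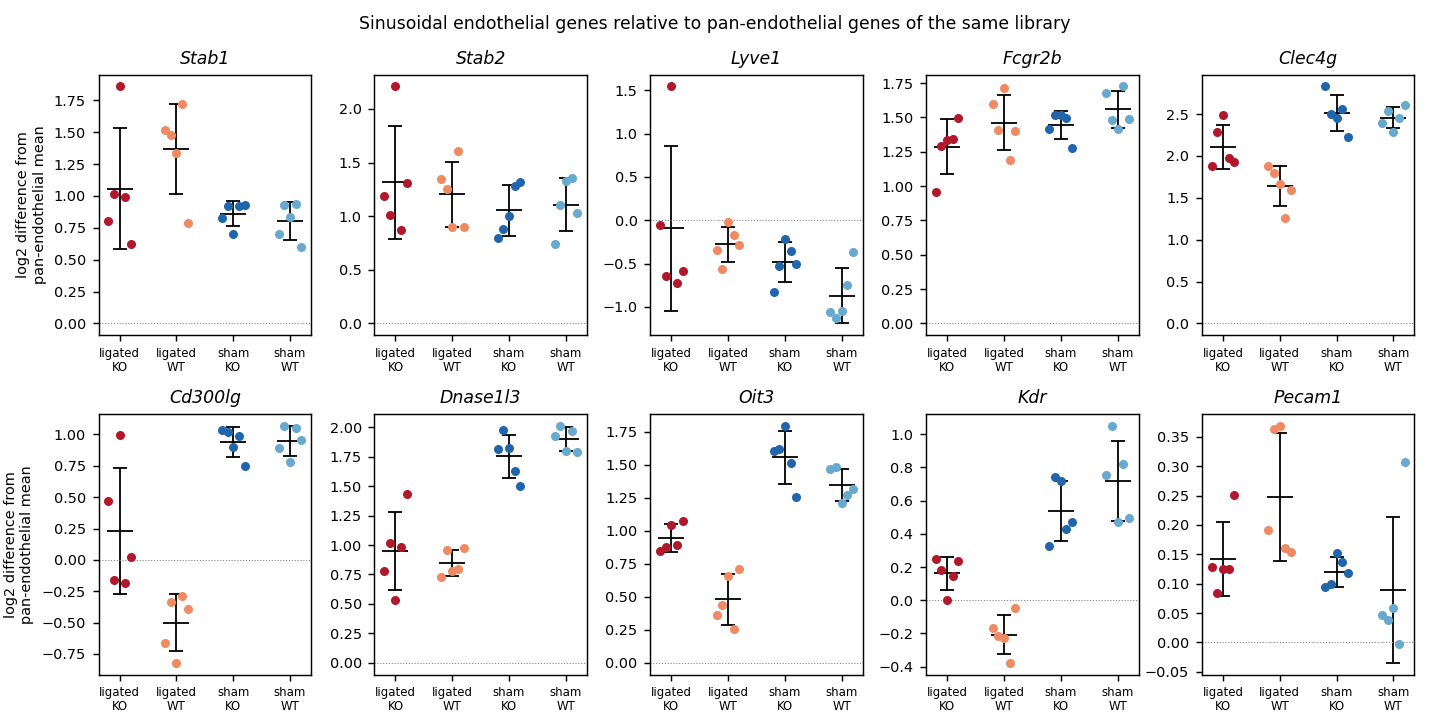
Log2 level of each gene minus the mean log2 level of 22 pan-endothelial genes of the same library (vertical axes), with a point for each library in ligated knockout, ligated wild-type, sham knockout and sham wild-type livers. Cd300lg, Oit3 and Kdr are higher in all ligated knockout than in all ligated wild-type libraries, by 0.73, 0.46 and 0.37 on average.

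Of 7 further sinusoidal genes tested, 3 fell after ligation in knockout livers and 5 in wild-type livers, with none higher and median log2 differences of -0.16 and -0.50. With BDL_KO_2359 and BDL_KO_2248 left out, 2 fell and 1 rose in knockout livers, 5 fell in wild-type livers, and 4 rather than 2 were higher in ligated knockout than in ligated wild-type livers. The share of all genes called in either direction then went from 25.1% to 37.0% for ligation in knockout livers. In wild-type livers it went from 35.6% to 42.2%, and for ligated knockout over ligated wild-type livers from 8.83% to 6.60%. The list summed to 19.1 and 16.7 FPKM in the 2 libraries left out, the lowest of their group. The added calls in ligated knockout livers are therefore no separate support. No wild-type library changed, so wild-type counts of this and the later lists moved only through the spread that the fit shares over the groups. Ehd3, a membrane-trafficking ATPase of sinusoidal cells, fell by 1.31 ± 0.19 in knockout livers and by 1.69 ± 0.19 in wild-type livers (SE, limma adjusted p = 9.02e-05 and 2.73e-06), and was 1.03 ± 0.19 higher in ligated knockout than in ligated wild-type livers (adjusted p = 0.0019). Gpr182, an atypical chemokine receptor of sinusoids, fell by 0.68 ± 0.20 in knockout livers and by 1.02 ± 0.20 in wild-type livers, and was 0.64 ± 0.20 higher in ligated knockout livers (adjusted p = 0.049). The mannose receptor Mrc1 and the lectin Clec1b did not pass.

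Of 22 pan-endothelial genes tested, 9 fell and 1 rose in knockout livers, and 14 fell and 1 rose in wild-type livers, with medians of -0.45 and -0.68. The shares of all genes were 12.9% lower and 12.3% higher in knockout livers, and 17.5% lower and 18.1% higher in wild-type livers. The knockout count rested on BDL_KO_2359 and BDL_KO_2248: without them 6 fell and 4 rose in knockout livers, while 15 fell and 2 rose in wild-type livers. The transcription factor Sox18 fell by 1.39 ± 0.21 in wild-type livers, the phosphatase Ptprb by 1.18 and the angiopoietin receptor Tek by 1.01, while Cd93 was the gene that rose, by 1.11. Tek and Tie1 are also counted in the VEGF and angiopoietin list. Cdh5, the endothelial cadherin, had 0.30 in knockout livers and 0.26 in wild-type livers and did not pass. In ligated knockout over ligated wild-type livers 3 of the 22 were higher and none lower, where 3.46% of all genes were higher. Without BDL_KO_2359 and BDL_KO_2248, 14 of the 22 were higher. Those libraries had the lowest pan-endothelial sums of their group, 58.0 and 46.2 FPKM, and were singled out after the data were seen. Leaving them out raised the group's level of this list, so the 14 calls are no separate support.

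Of 8 capillary and venous genes tested, 2 rose and none fell in knockout livers, and 2 rose and 1 fell in wild-type livers. Among all genes, 12.3% rose in knockout livers, and 18.1% rose and 17.5% fell in wild-type livers, so the wild-type counts are near the background. Col4a1, a chain of type IV collagen, rose by 1.10 ± 0.28 in knockout livers and by 2.04 ± 0.28 in wild-type livers, and Col4a2 by 0.94 and 1.26. These 2 were the genes of the list that rose, and Aqp1 fell by 0.84 in wild-type livers. Leaving out BDL_KO_2359 and BDL_KO_2248 gave 2 that fell in wild-type livers, and 4 rather than 1 that were higher in ligated knockout than in ligated wild-type livers. The list summed to 48.5 and 42.3 FPKM in those libraries, the lowest of their group, so the 4 calls are no separate support. Type IV collagen is also made by stellate cells and bile duct cells, whose part was not tested. The ligated knockout minus ligated wild-type difference of Col4a1 was -0.77 (limma adjusted p = 0.0885). Ly6a, a surface antigen of capillary endothelium and many other cells, was lower in knockout livers after either surgery, with log2 differences of -2.40 after ligation (adjusted p = 0.00383) and -2.61 after sham surgery (adjusted p = 0.0067).

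Of 8 tested transcription factor and shear response genes, 1 fell and 1 rose in knockout livers, and 2 fell and 2 rose in wild-type livers. Over all genes, 12.9% fell and 12.3% rose in knockout livers, and 17.5% fell and 18.1% rose in wild-type livers, so the knockout count is near the background. Gata4, a transcription factor that maintains sinusoidal identity in mouse liver, fell by 0.75 ± 0.18 in knockout livers and by 0.89 ± 0.18 in wild-type livers (SE, limma adjusted p = 0.0048 and 0.00075). Maf and the shear-induced factor Klf2 did not pass, and thrombomodulin (Thbd) rose by 0.69 in knockout livers and by 0.77 in wild-type livers. Of 9 VEGF and angiopoietin genes, 1 fell in knockout livers, a share near the background, and 5 in wild-type livers, where the ligand Vegfa fell by 0.81, the receptor Flt1 by 0.46 and the co-receptor Nrp1 by 0.63. Of 9 angiocrine factors, which endothelium sends to hepatocytes and stellate cells, 5 fell in each genotype. Wnt2 fell by 0.87 in knockout livers and by 0.85 in wild-type livers, Rspo3 by 0.73 and 0.56, and Bmp2 by 0.46 and 0.99. Bmp2 was 0.59 higher in ligated knockout than in ligated wild-type livers (adjusted p = 0.0261). When BDL_KO_2359 and BDL_KO_2248 were left out, 1 transcription factor or shear response gene fell and none rose in knockout livers, 2 VEGF and angiopoietin genes and 4 angiocrine factors fell there, and 1 angiocrine factor rose in wild-type livers. In ligated knockout over ligated wild-type livers, 5 rather than 1 angiocrine factors, 2 rather than 1 VEGF and angiopoietin genes and 1 rather than 0 transcription factor or shear response genes were then higher. Angiocrine sums were 10.1 and 9.48 FPKM in the libraries left out, and transcription factor and shear response sums 22.7 and 22.5 FPKM. Both were the lowest of the group, so the added calls of these lists are no separate support.

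Of 4 tested adhesion molecules that endothelium can display, 2 rose and none fell after ligation in each genotype, where 12.3% and 18.1% of all genes rose in knockout and wild-type livers. Icam1 rose by 1.43 in knockout livers and by 1.85 in wild-type livers, and Vcam1 by 1.36 and 1.72. Both were lower in ligated knockout than in ligated wild-type livers, with log2 differences of -0.997 for Icam1 (limma adjusted p = 0.0079) and -0.91 for Vcam1 (adjusted p = 0.0228), while Jam2 was 0.66 higher. Without BDL_KO_2359 and BDL_KO_2248 none of the 4 passed in this comparison.

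**Figure D4:**
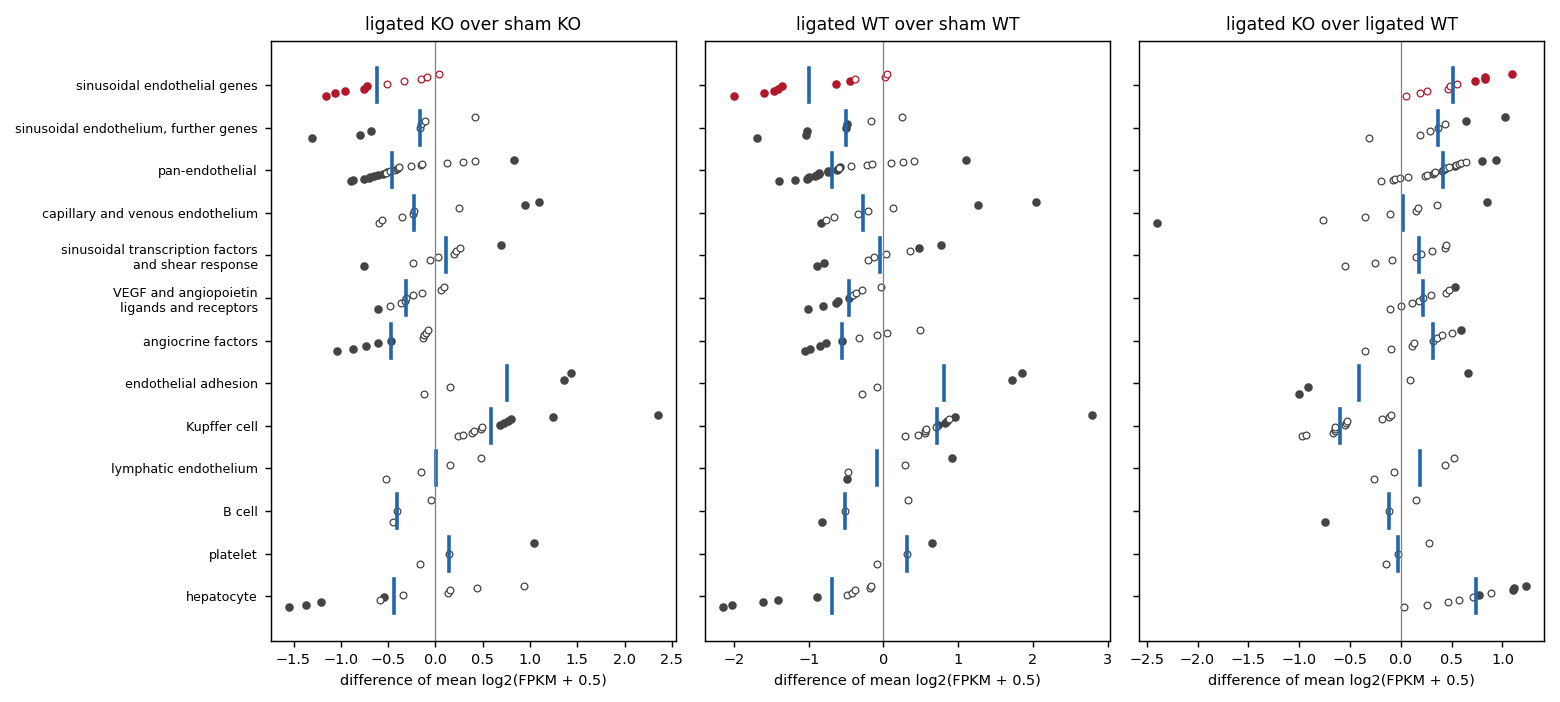
Log2 difference of each tested gene (points) and the median of each gene list (vertical mark) for ligation in knockout livers, ligation in wild-type livers and ligated knockout over ligated wild-type livers. The medians of the 10 genes are -0.62, -0.997 and 0.51, and those of the pan-endothelial list are -0.45, -0.68 and 0.41.

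Markers of the other cells that use some of the 10 genes were followed beside them. Of 12 Kupffer cell genes, 6 rose and none fell after ligation in knockout livers, and 5 rose and none fell in wild-type livers, led by the scavenger receptor Marco with 2.35 and 2.79. Their summed level was 291 to 945 FPKM in ligated knockout livers, 690 to 1014 FPKM in ligated wild-type livers, 247 to 386 FPKM in sham knockout livers and 356 to 586 FPKM in sham wild-type livers. Of Stab1, Lyve1 and Fcgr2b, which macrophages share, Stab1 and Lyve1 passed after ligation in neither genotype, and Fcgr2b was called lower in wild-type livers alone. The part of Kupffer cells in the levels of these genes was not tested. Without BDL_KO_2359 and BDL_KO_2248, 11 Kupffer cell genes rose in knockout livers and 10 in wild-type livers. Of all genes, 37.0% and 42.2% were then called in either direction, and the wild-type libraries themselves were unchanged. With all libraries, 12.3% of all genes rose in knockout livers and 18.1% in wild-type livers.

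Of 3 tested B cell genes, none passed in knockout livers after ligation, and in wild-type livers Cd79a, a chain of the B cell receptor complex, fell by 0.82 while the other 2 did not pass. Among all genes, 17.5% fell in wild-type livers and 5.37% were lower in ligated knockout than in ligated wild-type livers. Cd22, an inhibitory B cell lectin, was lower in ligated knockout than in ligated wild-type livers, with a log2 difference of -0.74 (limma adjusted p = 0.0262), and without BDL_KO_2359 and BDL_KO_2248 no B cell gene passed in that comparison. Without them, 2 B cell genes fell in wild-type livers. The part of B cells in the Fcgr2b level was not tested. The 6 platelet genes added up to 2.64 to 4.49 FPKM in ligated knockout livers, 2.18 to 3.99 FPKM in ligated wild-type livers, 1.28 to 2.68 FPKM in sham knockout livers and 1.79 to 2.46 FPKM in sham wild-type livers, with Gp1bb at 0 in every library and Pf4 called higher in both genotypes. Of 4 tested lymphatic genes, none passed in knockout livers, and Pdpn rose while Flt4 fell in wild-type livers. Flt4 is also counted among the further sinusoidal genes. Over all genes, 17.5% fell and 18.1% rose in wild-type livers, so these lymphatic counts are near the background. With BDL_KO_2359 and BDL_KO_2248 left out, 2 lymphatic genes fell in wild-type livers, and 2 were higher in ligated knockout than in ligated wild-type livers, where none was with all libraries. Of 10 hepatocyte genes, 4 fell in knockout livers and 5 in wild-type livers, and 4 were higher in ligated knockout than in ligated wild-type livers. The shares of all genes were 12.9%, 17.5% and 3.46%. Without BDL_KO_2359 and BDL_KO_2248, which had sums of 49154 and 59165 FPKM beside 31699 to 36459 FPKM in the other 3, 1 hepatocyte gene was higher, and 6 fell in each genotype. The hepatocyte sum was 31699 to 59165 FPKM in ligated knockout livers, 22872 to 33113 FPKM in ligated wild-type livers, 50526 to 63104 FPKM in sham knockout livers and 46576 to 63739 FPKM in sham wild-type livers. Its part in the levels of the 10 genes was not tested.

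The 10 genes did not vary as a single unit. After each group's mean had been subtracted, log2 values of Clec4g, Dnase1l3, Fcgr2b, Kdr, Oit3 and Pecam1 correlated with each other over the 20 libraries with Pearson's r between 0.62 for Clec4g and Kdr and 0.90 for Fcgr2b and Oit3. Cd300lg followed them loosely, with r between 0.18 for Pecam1 and 0.42 for Oit3, and Stab2 did not, with r between -0.06 for Oit3 and 0.12 for Fcgr2b. Points share their library, and the 2 libraries that stood apart are among them. Outside the 10 genes and over the 20 libraries, the patterns most like the mean of the 10 standardised log2 values were those of Gpr182 (r = 0.96, Spearman's rho = 0.94), Fgd5, Robo4, Tek and Notch4 (each r = 0.95). After subtraction of group means they were those of Flt4 (r = 0.91, rho = 0.86), Slc43a3 (r = 0.90), Jcad (r = 0.90), Ets1 (r = 0.89) and Plxnc1 (r = 0.87).

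Promoter sequence was at hand for 5 of the 10 genes, from 250 bases before to 50 bases after the RefSeq start (GRCm38.p6). Shown are Clec4g and Kdr, which fell by over 2-fold in ligated wild-type livers, and Stab1 and Stab2, which did not. Sequences run 5′ to 3′, and capitals mark matches on either strand to 4 searched motifs. The core of ETS family factors was searched as AGGAAG. That of KLF factors was searched as CCACCC. For MAF factors the letters were TGCTGA, and for GATA factors the letters were AGATAA.
Clec4g, chr8:3720602-3720901, minus strand: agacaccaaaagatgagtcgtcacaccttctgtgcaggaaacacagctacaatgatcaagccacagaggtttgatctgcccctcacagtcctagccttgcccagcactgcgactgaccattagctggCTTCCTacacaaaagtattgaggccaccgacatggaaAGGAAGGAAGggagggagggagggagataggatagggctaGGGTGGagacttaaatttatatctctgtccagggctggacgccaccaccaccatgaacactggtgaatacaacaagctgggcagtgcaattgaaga
Kdr, chr5:75978406-75978705, minus strand: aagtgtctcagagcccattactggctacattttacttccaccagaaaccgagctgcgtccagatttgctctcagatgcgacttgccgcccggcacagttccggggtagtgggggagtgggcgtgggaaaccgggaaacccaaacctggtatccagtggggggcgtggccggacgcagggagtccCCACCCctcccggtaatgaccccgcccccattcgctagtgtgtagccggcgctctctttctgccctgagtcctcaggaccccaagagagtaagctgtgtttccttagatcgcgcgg
Stab1, chr14:31168592-31168891, minus strand: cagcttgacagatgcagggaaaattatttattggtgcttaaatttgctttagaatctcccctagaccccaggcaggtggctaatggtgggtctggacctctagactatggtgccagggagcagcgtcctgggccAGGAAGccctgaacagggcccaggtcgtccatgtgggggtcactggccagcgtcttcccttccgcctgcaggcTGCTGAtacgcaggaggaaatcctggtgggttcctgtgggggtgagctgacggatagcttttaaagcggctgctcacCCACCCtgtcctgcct
Stab2, chr10:87007893-87008192, minus strand: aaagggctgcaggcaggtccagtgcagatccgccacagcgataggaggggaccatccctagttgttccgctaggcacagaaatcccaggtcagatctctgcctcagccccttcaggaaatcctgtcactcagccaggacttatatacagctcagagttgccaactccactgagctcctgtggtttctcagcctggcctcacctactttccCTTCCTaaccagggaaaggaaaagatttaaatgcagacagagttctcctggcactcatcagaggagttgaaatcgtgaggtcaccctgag
The ETS letters matched 3 times in Clec4g, 2 of them overlapping, and once each in Stab1 and Stab2, and 35.4% of all 32851 promoters of this length hold at least 1 match. The KLF letters matched once each in Clec4g, Kdr and Stab1 (31.5% of all promoters), and the MAF letters once, in Stab1 (19.5%). The GATA letters, found in 11.2% of all promoters, had no match in these windows, which says only that the letters are not there. The promoter of Fcgr2b held 1 KLF match.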

How the data were processed

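Groups were taken from the sample titles, whose library names are used here. The authors deposited 1 table of FPKM values per gene and library; per the submitters' processing notes, the tools were DESeq2 1.20.0, featureCounts 1.5.0-p3, HISAT2 2.0.5, fastp and CASAVA 1.8, and the builds GRCm38 and mm10, with no role stated; no source names the annotation. Multiplied by GENCODE M21 exonic length, 98.13 to 98.51% of low values came out whole within 0.02 of a fragment, so fragments could be recovered. A median-ratio factor over 14767 genes was 1.01 in each of the 20 libraries, which shows that this scaling is in the deposited FPKM. Whether counting used strand is not given, so overlapping genes on opposite strands cannot be told apart.

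The 14059 genes that reached 0.5 FPKM in 5 or more libraries were tested as log2(FPKM + 0.5) with limma 3.58.1 in R 4.3.3, in a model with 4 group means, variances moderated robustly along a mean trend, and Benjamini-Hochberg adjustment over all genes with a threshold of 0.05. The comparisons were ligation in each genotype, genotype after each surgery, and their interaction, and the fit was tested on simulated data. Tmem173 was compared by exact permutation. The 10 genes and the 12 other gene lists were chosen with earlier results of these data known. All 10 genes are named with values; from other lists, up to 4 called genes with the largest change were eligible per comparison, and members named as not passing were chosen after their values were seen. Other pseudocounts, filters, scalings, weights, tests and sample sets were tried, and each library was left out in turn. Mice lacking Abcb4 were not analysed here. Promoter sequences are from RefSeq.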

Additional observations from a re-analysis of the deposited data

Results flagged for a closer look

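In 3 of the 40 combinations of a gene and a group of 5 libraries, 1 library stood far from the other 4, where chance gives about 1 in 20. Lyve1 had 5.13 FPKM in BDL_KO_2248, against 1.55 to 1.82 FPKM in the other ligated knockout libraries. Stab1 had 4.36 FPKM in BDL_Wt_2240, against 5.24 to 5.56 FPKM in the other ligated wild-type libraries. Cd300lg had 4.62 FPKM in Sham_Wt_2227, against 5.80 to 6.06 FPKM in the other sham wild-type libraries. The ligation difference of Cd300lg was 0.93 on the log2 scale higher in knockout than in wild-type livers, by the interaction term of the limma fit.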

How the results depend on the processing

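Under other settings the share of all genes called moved too. For ligation in knockout livers it went from 25.1% to 12.0% with only the groups compared, 7.63% with Y-linked transcripts and 3.91% with Xist. In wild-type livers it went from 35.6% to 49.4% with array weights and 44.2% with only the groups compared. It was 17.5% there without a filter, 22.2% with Y-linked transcripts and 6.48% with Xist. The number of the 10 genes called changed as follows. For ligation in knockout livers 5 were called, 4 scaled to total fragments, with only the groups compared or without BDL_KO_2359 and BDL_KO_2248, 3 as TPM, 3 among libraries with Y-linked transcripts, 1 among those with Xist, and 5 to 6 with single libraries left out. For ligation in wild-type livers 7 were called, 5 without a filter, as TPM, scaled to total fragments or among libraries with Y-linked transcripts, 8 with array weights, with only the groups compared or without BDL_KO_2359 and BDL_KO_2248, 2 among libraries with Xist alone, and 5 to 8 with single libraries left out. For ligated knockout over ligated wild-type livers 4 were called, 3 without a filter, 5 with voom or with library type as a covariate, 6 with array weights, 1 as TPM, 1 scaled to total fragments, 1 with only the groups compared in the fit, 1 among libraries with Y-linked transcripts, 0 among those with Xist, 8 without BDL_KO_2359 and BDL_KO_2248, and 2 to 5 with single libraries left out, with 2 without BDL_Wt_2233. For that comparison the share of all genes called went from 8.83% to 2.93% without a filter, 7.74% with array weights and 2.01% with only the groups compared. It was 11.8% as TPM, 9.46% scaled to total fragments, 2.19% with Y-linked transcripts, 0.0569% with Xist and 6.60% without BDL_KO_2359 and BDL_KO_2248. In sham livers 0 of the 10 genes were called, 1 with array weights (Lyve1 higher), and 0 to 0 with single libraries left out. Of all genes, 2.97% were called there, and 8.78% with array weights. For the interaction 1 of the 10 genes was called, 0 without a filter, as TPM, scaled to total fragments, and within either library type, 3 without BDL_KO_2359 and BDL_KO_2248, and 0 to 1 with single libraries left out. Its share over all genes went from 0.377% to 0.0307% without a filter, 0.0498% as TPM and 0.149% scaled to total fragments. Without BDL_KO_2359 and BDL_KO_2248 it was 1.27%. Within library types, too few libraries remain for a lost call to say much; the medians of the 10 genes with Y-linked transcripts and with Xist were -0.79 and -0.44 for ligation in knockout livers, -0.96 and -0.98 in wild-type livers, and 0.35 and 0.61 for ligated knockout over ligated wild-type livers.

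As TPM, the median of all genes moved by 0.16 for ligation in knockout livers, 0.29 in wild-type livers, -0.27 for ligated knockout over ligated wild-type livers, -0.13 in sham livers and -0.13 for the interaction. Scaled to total fragments it moved by 0.16 for ligation in wild-type livers, -0.17 for ligated knockout over ligated wild-type livers and -0.11 for the interaction. Relative to all genes, the median of the 10 was then -0.62, -0.99 and 0.55 for the first 3 comparisons as TPM. The share of called genes that were higher moved likewise, at 48.8% as deposited and 75.9% as TPM for ligation in knockout livers, 50.8%, 82.0% and 70.9% (total fragments) in wild-type livers, 39.2%, 6.73% and 11.5% for ligated knockout over ligated wild-type livers, 44.0%, 9.52% and 24.1% in sham livers, and 41.5% and 57.1% (TPM) for the interaction.

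The values that changed sign were those of genes that did not pass, most of them near 0. For ligation in knockout livers they were Stab1 0.011 and Stab2 0.083 as TPM, Lyve1 -0.020 with voom, Lyve1 -0.20 with array weights, Lyve1 -0.017 with library type as a covariate, Lyve1 -0.25 with Y-linked transcripts alone, Lyve1 -0.21 without BDL_KO_2359 and BDL_KO_2248. With single libraries left out, the values of Lyve1 ran over -0.23 to 0.13, Stab1 ran over -0.25 to 0.0075, Stab2 ran over -0.19 to 0.044. With single libraries left out for ligation in wild-type livers, the values of Lyve1 ran over -0.042 to 0.18, Stab1 ran over -0.021 to 0.077. For ligated knockout over ligated wild-type livers they were Stab1 -0.23, Fcgr2b -0.083 as TPM, Stab1 -0.14, Fcgr2b -0.0060 scaled to total fragments, Stab1 -0.21, Fcgr2b -0.12 with Y-linked transcripts alone. With single libraries left out, the values of Stab1 ran over -0.044 to 0.21. For sham knockout over sham wild-type livers they were Dnase1l3 -0.12, Stab2 -0.018, Fcgr2b -0.082 as TPM, Dnase1l3 -0.056, Fcgr2b -0.019 scaled to total fragments, Kdr 0.041 with array weights, Dnase1l3 -0.087, Kdr 0.052 with Xist alone. With single libraries left out, the values of Kdr ran over -0.097 to 0.077, Dnase1l3 ran over -0.069 to 0.098, Fcgr2b ran over -0.0012 to 0.12. For the interaction they were Lyve1 0.0047 with a pseudocount of 1, Fcgr2b -0.0010, Pecam1 -0.057 as TPM, Pecam1 -0.036 scaled to total fragments, Fcgr2b -0.16, Pecam1 -0.077 with Y-linked transcripts alone, Lyve1 0.17 with Xist alone. With single libraries left out, the values of Lyve1 ran over -0.28 to 0.082, Pecam1 ran over -0.051 to 0.20, Fcgr2b ran over -0.0019 to 0.31.

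The cause of these changes was not tested. No paired analysis was possible because the library numbers in the titles are unique and the groups share none. With 36 to 1336 fragments per gene and library, counting error is small beside the spread between libraries for most of the 10 genes and largest for Cd300lg and Lyve1.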
